A study of Mus musculus with 12 samples.

Results

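CIITA and the MHC class II genes were followed across 4 groups of 3 libraries. The set is 7 genes of the 55487 in the count table: *Ciita*, *Cd74*, *H2-Aa*, *H2-Ab1*, *H2-Eb1*, *H2-DMa* and *H2-DMb1*, found through their mouse Ensembl identifiers (ENSMUSG00000022504, ENSMUSG00000024610, ENSMUSG00000036594, ENSMUSG00000073421, ENSMUSG00000060586, ENSMUSG00000037649 and ENSMUSG00000079547). They were chosen by symbol, from a list drawn up with the count values and the group comparisons of these same libraries in view, so their levels and fold changes are a description and carry no p-value here. The cells were im-TEC, conditionally immortalized tubular epithelial cells of the mouse, profiled by QuantSeq 3′ RNA sequencing, which reads the end of each polyadenylated transcript. The study asked what blocking nicotinamide N-methyltransferase (NNMT) does to tubular cells with and without transforming growth factor β (TGFβ). Control cells received neither agent. Inhibitor cells received 50 µM 5-amino-1-methylquinolinium (NNMTi), TGFβ cells received 10 ng/mL TGFβ, and the combined group received both, each for 48 h. All 4 groups share 1 history that bears on class II genes: the line was kept at 33 °C in medium with 10 ng/ml interferon-γ (IFNγ), and it then spent 7 days at 37 °C with no IFNγ before seeding, which lowers the activity of its SV40 large T antigen. Whether the line is a single clone is not given in the sources used here.

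MHC class II molecules are pairs of an α and a β chain that present peptides from the endosomal route to CD4+ T cells. Their genes, with the invariant chain *Cd74* and the peptide exchange factor H2-DM, are switched on together by CIITA, a coactivator that does not bind DNA itself but docks on the RFX, CREB and NF-Y factors sitting on the X and Y boxes of class II promoters. Outside professional antigen-presenting cells, as in kidney tubular epithelium, CIITA is known mainly as a gene that IFNγ induces, with IRF1 among the factors that act on it, and TGFβ is known to oppose that induction in several cell types.

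Libraries held 2584117 to 11866903 counts in genes, and the lowest and the highest total both belonged to the TGFβ group (replicates 3 and 2). Replicates varied most in that group, with a biological coefficient of variation of 0.2265 against 0.0657 in the controls, so results that use it are also given without those libraries. Levels are CPM, counts divided by library depth and scaled by TMM (a correction for library composition), and 3 counts in 1 library correspond to 0.253 to 1.16 CPM. Because each transcript gives reads at its 3′ end alone, counts do not scale with transcript length, although how well each 3′ end was captured was not tested. Fold changes are log2 values ± SE from edgeR. A gene is called where the edgeR quasi-likelihood test, adjusted by Benjamini-Hochberg over the 13581 genes tested, gives p below 0.05. Whether the 3 replicates of a group are separate cultures is not given, so a p-value here reflects the spread among libraries, which may be technical. As a check of the label, 7 of 11 tubule markers averaged at least 1 CPM in the controls, among them *Pax8* at 220.5 ± 17.9, *Pax2* at 290.7 ± 17.9 and *Cdh16* at 213 ± 5.26 CPM in the controls (SD, n = 3). *Epcam* and *Slc34a1* had no count in any library, *Cdh1* averaged at most 0.131 CPM, and *Krt18* averaged 0.702 CPM in the controls, so some defining epithelial markers were absent or near the limit of detection.

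The promoters of the set are shown because the box pair that CIITA's partners bind can be read in them. RefSeq promoter windows (GRCm38.p6, 250 bases before to 50 after the start of transcription) were matched for 4 of the 7 genes, in 5 windows, and *Ciita*, *Cd74* and *H2-Ab1* had no entry. The search was for an X box core, GNAAC, followed on the same strand by a Y box, GATTGG, that starts 20 to 40 bases further on, with both strands read. These letters were set with the promoters in view. The pair was in 1 window each of *H2-Aa*, *H2-Eb1* and *H2-DMb1* and in neither window of *H2-DMa*, against 396 of 32851 promoter windows of all genes (1.205%). Capitals mark the X core and then the Y box, which start 81 and 49 bases before the start of transcription in *H2-Aa*, 91 and 60 in *H2-Eb1*, and 94 and 62 in *H2-DMb1*. The order and the common strand of the boxes were set by the search, as was the range of 20 to 40 bases. Within that range the spacing was 31 or 32 bases in the 3 sequences, each read on the strand of its gene.
H2-Aa promoter, chr17:34287774-34288073, minus strand: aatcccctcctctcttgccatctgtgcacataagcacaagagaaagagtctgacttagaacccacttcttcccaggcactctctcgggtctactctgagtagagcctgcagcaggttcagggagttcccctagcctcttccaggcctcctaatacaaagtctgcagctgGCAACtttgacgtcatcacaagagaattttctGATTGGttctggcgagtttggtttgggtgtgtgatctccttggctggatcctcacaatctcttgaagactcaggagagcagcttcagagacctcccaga
H2-Eb1 promoter, chr17:34305617-34305916, plus strand: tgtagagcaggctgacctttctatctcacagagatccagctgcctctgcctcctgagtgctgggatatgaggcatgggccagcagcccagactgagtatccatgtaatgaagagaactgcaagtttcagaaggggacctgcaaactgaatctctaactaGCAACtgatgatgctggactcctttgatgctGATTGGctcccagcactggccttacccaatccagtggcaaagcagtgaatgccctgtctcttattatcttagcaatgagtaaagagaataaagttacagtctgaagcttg
H2-DMb1 promoter, chr17:34152941-34153240, plus strand: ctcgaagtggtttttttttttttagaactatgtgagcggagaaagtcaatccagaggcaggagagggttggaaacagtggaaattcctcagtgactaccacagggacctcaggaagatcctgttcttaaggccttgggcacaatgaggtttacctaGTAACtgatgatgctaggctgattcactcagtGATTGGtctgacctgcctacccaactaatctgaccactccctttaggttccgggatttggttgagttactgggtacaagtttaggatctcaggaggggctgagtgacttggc
A match describes these letters and is not evidence of a bound site, and *H2-DMa* without one says only that the letters are not in its windows. The class II genes *H2-Eb2*, *H2-Oa* and *H2-Ob* also held the pair, and *H2-DMb2* did not.

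In untreated cells the class II program was on. The β chain of the I-E molecule, *H2-Eb1*, had the highest level of the 7, and its 3 control libraries read 169.5, 183.6 and 189 CPM. The invariant chain *Cd74*, which fills the peptide groove until the molecule reaches the endosome, stood at 89.6, 99.5 and 92.5 CPM. The peptide exchange subunit *H2-DMb1* was at 47.3, 43.7 and 48.2 CPM, and its partner *H2-DMa* was at 6.36, 6.78 and 6.15 CPM. In each control library *H2-Eb1* was highest, followed by *Cd74* and then by *H2-DMb1*. The I-A β chain *H2-Ab1* read 36.3, 32.8 and 31.0 CPM, and the I-A α chain *H2-Aa* read 16.2, 15.9 and 17.7 CPM. *Ciita* itself was the rarest of the set, at 3.24, 5.93 and 4.33 CPM from 29, 49 and 43 counts. The other class II genes were close to silent. *H2-Ea*, named for the α chain that pairs with *H2-Eb1* and listed as a pseudogene in the RefSeq names, had 0 counts in all 12 libraries, where 3 counts is the limit that 0 allows. *H2-Eb2*, *H2-Oa*, *H2-Ob* and *H2-DMb2* averaged under 1 CPM, and none of these 5 genes passed the low-count filter.

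**Figure D1:**
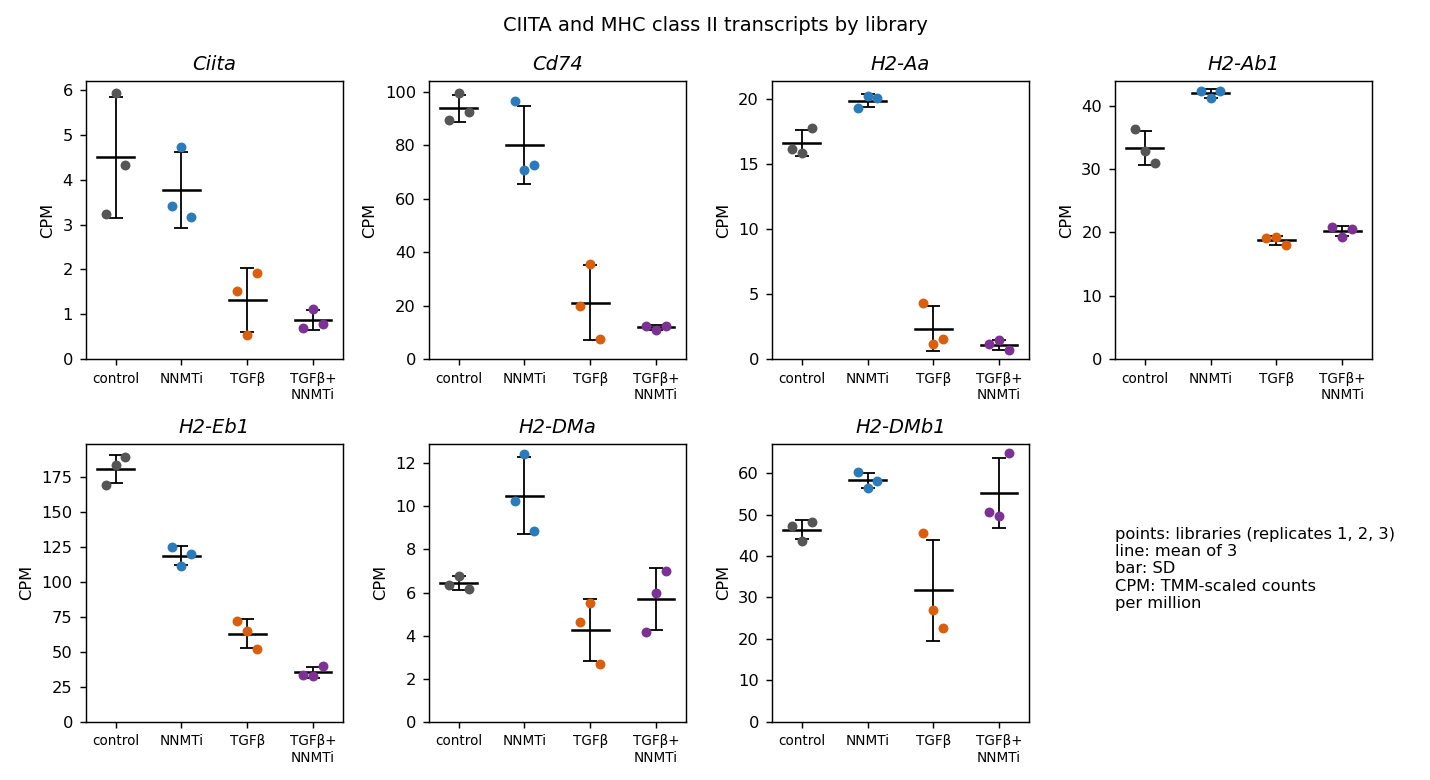
Level of each gene in CPM (depth- and TMM-scaled counts) in every library, by group, with the mean (line) and SD (bar) of 3 libraries. *Ciita*, *Cd74*, *H2-Aa*, *H2-Ab1* and *H2-Eb1* are lower in all libraries that received TGFβ than in all that did not, while *H2-DMb1* in the combined group, at 49.8 to 64.8 CPM, lies above its control libraries.

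With TGFβ alone the class II set was lower, by amounts that differed between its genes. *H2-Aa* read 4.31, 1.15 and 1.53 CPM with TGFβ, from 40, 13 and 4 counts, against at least 15.9 CPM in the controls. All 3 TGFβ libraries lay below all controls, and the fitted difference was -2.74 ± 0.32, or 6.7-fold. *Cd74* read 19.9, 35.6 and 7.65 CPM, again with no overlap, a difference of -2.02 ± 0.32 or 4.05-fold. Its 3 TGFβ libraries also spread the most, and replicate 3, the shallowest, is the lowest of them. *Ciita* read 1.51, 0.531 and 1.91 CPM from 14, 6 and 5 counts, so each of these levels rests on few reads. The groups did not overlap, and the difference was -1.96 ± 0.44 or 3.9-fold.

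*H2-Eb1* read 72.2, 64.7 and 51.7 CPM with TGFβ, 2.83-fold lower than in the controls (-1.50 ± 0.12), with no overlap. *H2-Ab1* read 19.1, 19.3 and 18.0 CPM, the tightest triplet of the group, and was 1.76-fold lower (-0.82 ± 0.12). Thus both chains of the I-A molecule were lower, but by different amounts. The peptide exchange pair differed least. *H2-DMb1* read 45.5, 27.0 and 22.6 CPM, and its replicate 1 lay inside the control range. Its difference was -0.51 ± 0.19. *H2-DMa* read 4.63, 5.49 and 2.68 CPM, below all controls, with a difference of -0.48 ± 0.27. In this comparison 17.1% of all genes tested were called lower and 22.4% had 3 libraries below all 3 controls. Of the 7 genes, 6 were called lower, all but *H2-DMa*, and 6 lay below all controls, all but *H2-DMb1*, a count from which nothing is read since the choice of genes used this contrast. The median difference of the set was -1.50, against 0.02 over all genes tested. The call of *H2-DMb1* was lost without control replicate 1, 2 or 3 (-0.50, -0.55 and -0.48) and without TGFβ replicate 2 or 3 (-0.34 and -0.36). It was also lost with only the TGFβ and control groups fitted (-0.53). Without TGFβ replicates 2 and 3 together its difference was -0.05. The other 5 called genes stayed lower in every alternative run, although *H2-Aa* moved to -1.96 without TGFβ replicates 2 and 3. These runs reuse the libraries in view when the genes were chosen, so this is a description and no support. The order of the genes is less firm: *H2-Aa* had the largest difference with all libraries, but *Cd74* had a larger one without TGFβ replicate 2 (-2.55 against -2.24) and without replicates 2 and 3 (-2.25 against -1.96). *Ciita* reached the level of the low-count filter in all control and inhibitor libraries, but in 2 TGFβ and 0 combined libraries. It thus passed only through the groups without TGFβ, where it is higher, so nothing is read from its call. *H2-Aa* reached that level in 2 TGFβ and 2 combined libraries. In bulk RNA, fewer cells that express these genes and less RNA per cell cannot be told apart.

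The inhibitor alone split the set. *H2-Eb1* was lower, at 124.6, 111.2 and 120.0 CPM, below all 3 controls, a difference of -0.61 ± 0.11 or 1.52-fold. *H2-DMa* was at 10.2, 12.4 and 8.85 CPM, all above the controls, with a difference of 0.71 ± 0.24. *H2-Ab1* was at 42.4, 41.2 and 42.4 CPM, a difference of 0.33 ± 0.12 with no overlap. *H2-DMb1* at 60.2, 56.4 and 58.1 CPM (0.33 ± 0.18) and *H2-Aa* at 19.3, 20.2 and 20.1 CPM (0.26 ± 0.25) also lay above every control library. *Ciita* did not separate from the controls, at 3.41, 4.73 and 3.17 CPM (-0.25 ± 0.36), nor did *Cd74*, at 96.8, 70.9 and 72.8 CPM (-0.23 ± 0.29). Thus *Ciita* and *Cd74* overlapped the controls, 4 genes lay above them and 1 lay below. Over all genes tested, 5.8% were called lower and 2.47% higher, while 18.7% had 3 libraries below the controls and 17% had 3 above. Of the set, 1 was called lower (*H2-Eb1*) and 0 were called higher in edgeR, with 3 at an unadjusted p below 0.05 in either direction. The median difference was 0.26, against 0.01 over all genes. When only these 2 groups were fitted, *H2-DMa*, *H2-Ab1* and *H2-DMb1* were also called, all higher (0.70, 0.33 and 0.32). That fit called 2931 genes in all, against 1123 with the 4 groups fitted. It reuses the libraries in view when the genes were chosen, so these calls are a description and no support.

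**Figure D2:**
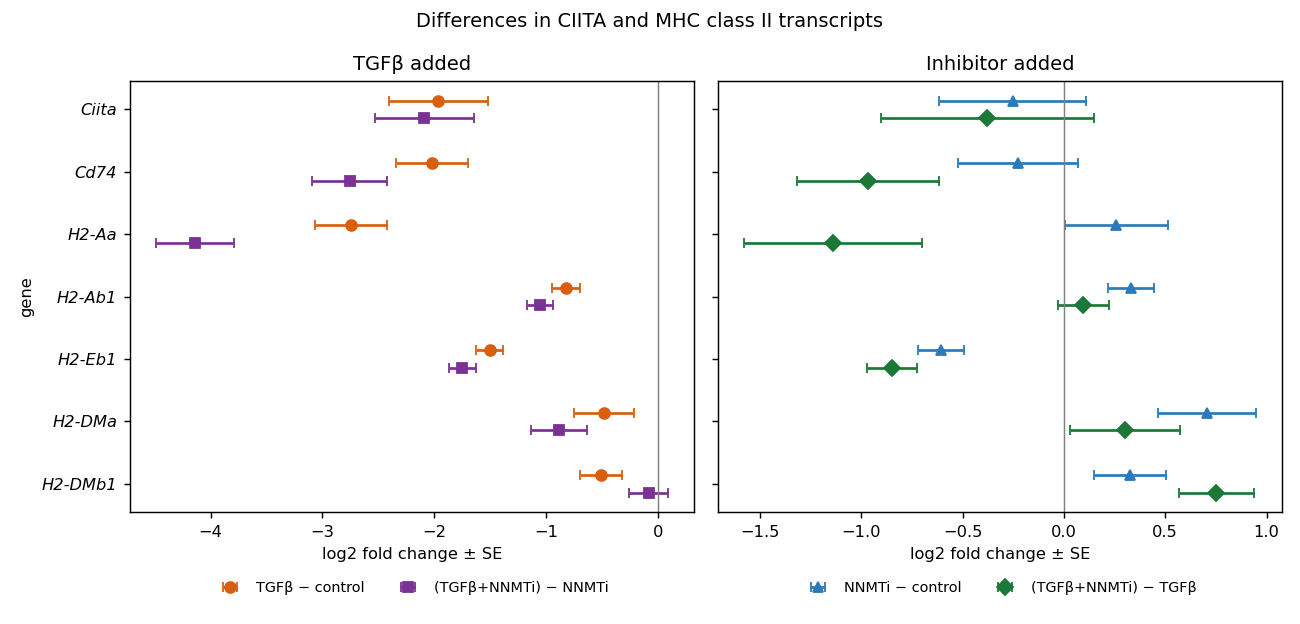
Log2 fold change ± SE of each gene (edgeR) for TGFβ added without and with the inhibitor (left) and for the inhibitor added without and with TGFβ (right). On the left the values run from -4.14 for *H2-Aa* to -0.08 for *H2-DMb1*, and on the right *H2-Eb1* is below 0 in both comparisons while *H2-DMb1* and *H2-DMa* are above 0 in both.

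The combined group, set against TGFβ alone, gave a second split in which *H2-Eb1* and *H2-DMb1* moved apart. *H2-Eb1* read 33.3, 32.8 and 40.0 CPM in the combined group, below all 3 libraries with TGFβ alone, a difference of -0.85 ± 0.12 or 1.8-fold. *H2-DMb1* read 50.7, 49.8 and 64.8 CPM, above all 3, a difference of 0.75 ± 0.19 or 1.69-fold. *H2-Ab1* at 20.8, 19.3 and 20.5 CPM lay just above them, with a difference of only 0.10 ± 0.13. The other 4 genes overlapped between the groups. *H2-Aa* read 1.16, 1.46 and 0.660 CPM (-1.14 ± 0.44) and *Cd74* read 12.4, 10.8 and 12.4 CPM (-0.97 ± 0.35). *Ciita* read 0.694, 1.12 and 0.792 CPM from 6, 10 and 6 counts (-0.38 ± 0.53), and *H2-DMa* read 4.17, 5.96 and 7.00 CPM (0.30 ± 0.27). At this depth *Ciita* is too close to the floor of 3 counts to tell these groups apart. The background was 6.97% of genes called lower and 3.45% called higher, with 13.8% and 10.1% not overlapping in those directions. Of the set, 1 was called lower (*H2-Eb1*) and 1 higher (*H2-DMb1*). The median difference was -0.38, which is the value of *Ciita*, against -0.02 over all genes.

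Several of these values and calls changed with the libraries and settings used. *Cd74* was called lower without TGFβ replicate 3 (-1.24) and without replicates 2 and 3 together (-0.74), and its difference was -0.44 without replicate 2. *H2-Aa* was called lower without TGFβ replicate 2 (-1.65), without both (-1.93) and with no low-count filter (-1.13), but its difference shrank to -0.15 without replicate 1. *H2-DMb1* lost its call without combined replicate 3 (0.64), with only these 2 groups fitted (0.78), with all libraries thinned to the shallowest (0.86), and without TGFβ replicates 2 and 3, where the difference was 0.29. *H2-Eb1* was lower in every alternative, between -1.02 and -0.74, but these runs reuse the libraries in view when the genes were chosen.

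Among cells that received the inhibitor, those with and without TGFβ gave the widest range of the set. The combined libraries of *H2-Aa* lay 17.7-fold below those with the inhibitor alone (-4.14 ± 0.35), those of *Cd74* 6.76-fold (-2.76 ± 0.34) and those of *Ciita* 4.25-fold (-2.09 ± 0.44). In the combined libraries *H2-Aa* had 10, 13 and 5 counts and *Ciita* 6, 10 and 6, so the folds of both rest on few reads. *H2-Eb1* was 3.36-fold lower (-1.75 ± 0.12), *H2-Ab1* 2.08-fold (-1.05 ± 0.12) and *H2-DMa* 1.84-fold (-0.88 ± 0.25). These 6 genes did not overlap between the groups, while *H2-DMb1* did and differed by -0.08 ± 0.18. Of all genes tested 18.3% were called lower and 26.1% had libraries below without overlap. Of the set, 6 were called lower, all but *H2-DMb1*, and the median difference was -1.75, against -0.0025 over all genes. Nothing is read from this count, since the genes were chosen with these comparisons in view. *Ciita* also passed the low-count filter only through the groups without TGFβ. The call of *H2-DMa* was lost without inhibitor replicate 2 (-0.74), without combined replicate 1 (-0.69) and after thinning (-0.56).

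Whether the inhibitor's effect differed with TGFβ present was taken from the interaction, the inhibitor effect with TGFβ minus that without. It called 1.11% of all genes tested. None of the 7 genes was called by edgeR (0, with 1 at an unadjusted p below 0.05, *H2-Aa*), and DESeq2 also called 0. The values ran from -1.40 ± 0.51 for *H2-Aa* and -0.74 ± 0.46 for *Cd74* to 0.42 ± 0.26 for *H2-DMb1*. *H2-Eb1* (-0.24 ± 0.17), *H2-Ab1* (-0.24 ± 0.17), *H2-DMa* (-0.40 ± 0.36) and *Ciita* (-0.12 ± 0.63) lay between. *H2-Aa* was called without TGFβ replicate 2 (-1.89) and without replicates 2 and 3 (-2.17), and was -0.41 without replicate 1. The errors of this term are wide, so no call does not show that the effects were alike.

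The make-up of the class II transcripts differed between groups as well as their amount. Summed over the 7 genes, controls held 368.5 to 388.9 CPM and inhibitor libraries 317 to 357 CPM, against 106 to 167.1 CPM with TGFβ and 121.2 to 146.2 CPM in the combined group. The TGFβ and combined groups overlap in this sum and both lie below the other groups. *H2-Eb1* made up 47.3 ± 1.29% of the sum in the controls and 44.7 ± 3.56% with TGFβ, but 35.6 ± 1.09% with inhibitor alone and 27.2 ± 0.185% in the combined libraries (SD, n = 3). Its share was thus lower in every library with the inhibitor than in any without it. *H2-DMb1* made up 12.2 ± 0.816% in the controls, 17.5 ± 0.551% with the inhibitor and 22.0 ± 4.87% with TGFβ. In the combined group it reached 42.2 ± 1.88%, and there it took the first place that *H2-Eb1* held in the other 3 groups. *Cd74* went from 24.6 ± 0.949% in the controls to 9.15 ± 0.807% in the combined group. The I-A chains, which pair in the molecule, came apart: there were 2.02 ± 0.249 *H2-Ab1* counts per *H2-Aa* count in the controls and 2.12 ± 0.0826 with the inhibitor. With TGFβ the ratio was 4.43 to 16.8 and in the combined group 13.2 to 31. The lowest ratio with TGFβ, 4.43, lay above the highest without it, 2.24. These ratios rest on few *H2-Aa* counts, 57 over the 3 TGFβ libraries and 28 over the combined ones.

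**Figure D3:**
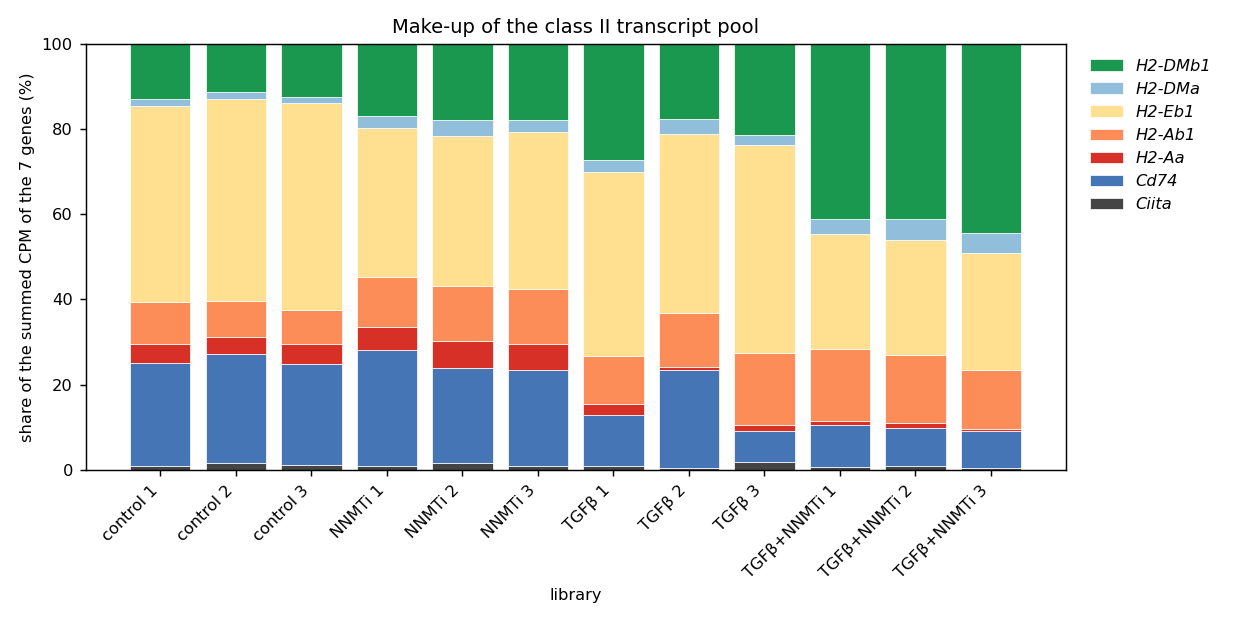
Share of each gene in the summed CPM of the 7 genes (y axis, %) for each library (x axis). *H2-Eb1* has the largest band in control libraries (46 to 48.6%), and *H2-DMb1* has the largest in the combined group (41.1 to 44.4%).

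A list of 16 genes held class II promoter factors and CIITA cofactors, and also *Prdm1* and *Ezh2*, known as repressors of *Ciita*. Of these 16, TGFβ raised 1 (*Ezh2*) and lowered 4. The 4 include *Prdm1*, from whose call nothing is read, for the reason given below. These counts are near the shares over all genes tested (19.4% called higher and 17.1% lower), so they are not a result about this list. *Rfx5*, the DNA-binding subunit of the RFX complex, fell from 28.8 ± 2.1 to 16.0 ± 2.24 CPM (-0.84 ± 0.15, edgeR adjusted p = 2.6e-04), and it was also lower in the combined group than with the inhibitor (-1.0 ± 0.15, edgeR adjusted p = 3.4e-05). The other RFX subunits were not called: *Rfxank* was at -0.03 ± 0.21 and *Rfxap* at 0.05 ± 0.15 with TGFβ. With the inhibitor alone *Rfxap* rose by 0.66 ± 0.15 (edgeR adjusted p = 0.0078), a call lost without control replicate 1 or inhibitor replicate 3 (adjusted p 0.0512 to 0.0521). In the same comparison *Rfxank* was at 0.64 ± 0.20, with an adjusted p of 0.062. In the combined group *Rfxank* was below its level with the inhibitor (-0.65 ± 0.21, adjusted p = 0.018), a call lost without inhibitor replicate 2 or 3, without combined replicate 1 and after thinning (adjusted p 0.0505 to 0.225). *Ncoa1*, a coactivator with acetyltransferase activity, fell with TGFβ by 0.87 on the log2 scale (adjusted p = 8.2e-04). *Prdm1*, which encodes BLIMP-1 and represses *Ciita* in plasma cells, held 6, 14 and 22 counts in the controls and 0, 1 and 1 with TGFβ. It passed the low-count filter only through the groups without TGFβ, where it is higher. Nothing is thus read from its call, which enters only the count of 4 above. *Ezh2*, the histone H3 lysine methyltransferase known to silence *Ciita* in some tumour cells, rose by 1.06 ± 0.12 (adjusted p = 1.1e-06).

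In the IFNγ receptor route, with TGFβ alone, the receptor chains were not called. *Ifngr1* (0.10 ± 0.11), *Ifngr2* (0.04 ± 0.10) and *Jak2* (0.19 ± 0.12) were not called with TGFβ. *Irf1*, the factor that acts on the IFNγ-responsive promoter of *Ciita*, was at 113 ± 6.08 CPM in the controls and 114 ± 30.9 CPM with TGFβ (0.02 ± 0.14), and *Socs1*, a feedback inhibitor of JAK kinases, was at 0.11 ± 0.31. *Irf1* ran from -0.24 to 0.19 when 1 TGFβ library was left out, and it was called higher without replicates 2 and 3 together (0.38, edgeR adjusted p = 0.0097). In inhibitor-treated cells TGFβ raised *Ifngr2* (0.33 ± 0.10, adjusted p = 0.015), a call lost without inhibitor replicate 2 (adjusted p = 0.0572), and *Socs1* (1.27 ± 0.31, adjusted p = 0.0033), a call lost after thinning (adjusted p = 0.165). *Ifng* had 0 counts in every library. *Irf8*, a factor of myeloid and B cells, went from 13.6 ± 2.28 to 6.19 ± 0.918 CPM with TGFβ (-1.09 ± 0.22, adjusted p = 5.9e-04). It was lower still in the combined group, at 3.07 ± 0.389 CPM (-1.05 ± 0.25 against TGFβ, adjusted p = 0.011), a call lost without combined replicate 2 and under 3 other settings (adjusted p 0.0517 to 0.123). *Jak1* was called lower with TGFβ (-0.32 ± 0.12, adjusted p = 0.047) and *Ptpn2*, a phosphatase that acts on JAK kinases, higher (0.35 ± 0.13, adjusted p = 0.048). Neither held: *Jak1* lost its call in 7 alternatives, among them without control replicate 1, 2 or 3 and without TGFβ replicate 1 or 3 (adjusted p 0.0709 to 0.182), and *Ptpn2* in 13, those same libraries among them (adjusted p 0.0623 to 0.194). In all, 2 of the 13 tested members of this route were called higher with TGFβ and 2 lower, also near the shares over all genes (19.4% and 17.1%).

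Most tested genes on a list of those that IFNγ induces rose with TGFβ, in which class II genes were lower. Of 18 such genes 15 were tested, and 12 rose and the other 3 were not called (19.4% of all genes tested were called higher and 17.1% lower), with a median of 1.12 against 0.02 over all genes. *Gbp3*, a guanylate-binding GTPase, went from 20.5 ± 1.35 to 150 ± 3.5 CPM (2.86 ± 0.12, edgeR adjusted p = 4.2e-12), and the chemokine *Cxcl10* from 70.7 ± 1.73 to 455 ± 44.9 CPM (2.68 ± 0.11, adjusted p = 2.2e-12). *Gbp7* (2.22 ± 0.14, adjusted p = 8e-10) and *Gbp2* (1.76 ± 0.13, adjusted p = 5.6e-09) rose as well. *Nlrc5*, the relative of CIITA that drives MHC class I genes, rose by 1.12 ± 0.20 with TGFβ (adjusted p = 2.7e-04), while *Ciita* was lower in the same libraries. *Nlrc5* fell by 0.81 on the log2 scale with the inhibitor alone (adjusted p = 0.027), a call lost without control replicate 2 or 3, without inhibitor replicate 1 or 3 and after thinning (adjusted p 0.0783 to 0.265). In the combined group 10 of the 15 were lower than with TGFβ alone and the other 5 were not called, with a median of -0.62, against 6.97% of all genes called lower, 3.45% called higher and a median of -0.02. Both comparisons use the same TGFβ libraries, and the list was chosen with earlier results of these data known. Neither count is thus evidence of enrichment over the shares of all genes. Among these, *Gbp3* was at -1.17 ± 0.11 (adjusted p = 2.2e-06), the immunoproteasome subunit *Psmb8* at -0.94 ± 0.12 (adjusted p = 4.5e-05) and *Nlrc5* at -1.08 ± 0.20 (adjusted p = 0.0024).

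A promoter window of *Gbp3* is shown beside those of class II because it carries another kind of box. The core of the interferon-stimulated response element, GAAANNGAAA on either strand, was in 8 of 15 windows of the IFNγ-inducible genes, in 0 of the 5 class II windows and in 3.443% of all promoter windows. Capitals below mark 2 overlapping matches to the response element, read on the minus strand, beginning 45 bases before the start of transcription.
Gbp3 promoter, chr3:142559794-142560093, plus strand: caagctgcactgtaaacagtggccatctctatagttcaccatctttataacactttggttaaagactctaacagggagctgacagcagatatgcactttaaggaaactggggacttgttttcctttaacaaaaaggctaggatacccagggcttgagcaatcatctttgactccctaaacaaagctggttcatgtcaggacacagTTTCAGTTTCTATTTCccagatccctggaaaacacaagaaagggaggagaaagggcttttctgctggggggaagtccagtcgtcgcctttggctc
The other RefSeq window of *Gbp3* holds no match to the response element. No X and Y pair was found in any of the 15 windows (0). These matches describe letters and not binding.

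**Figure D4:**
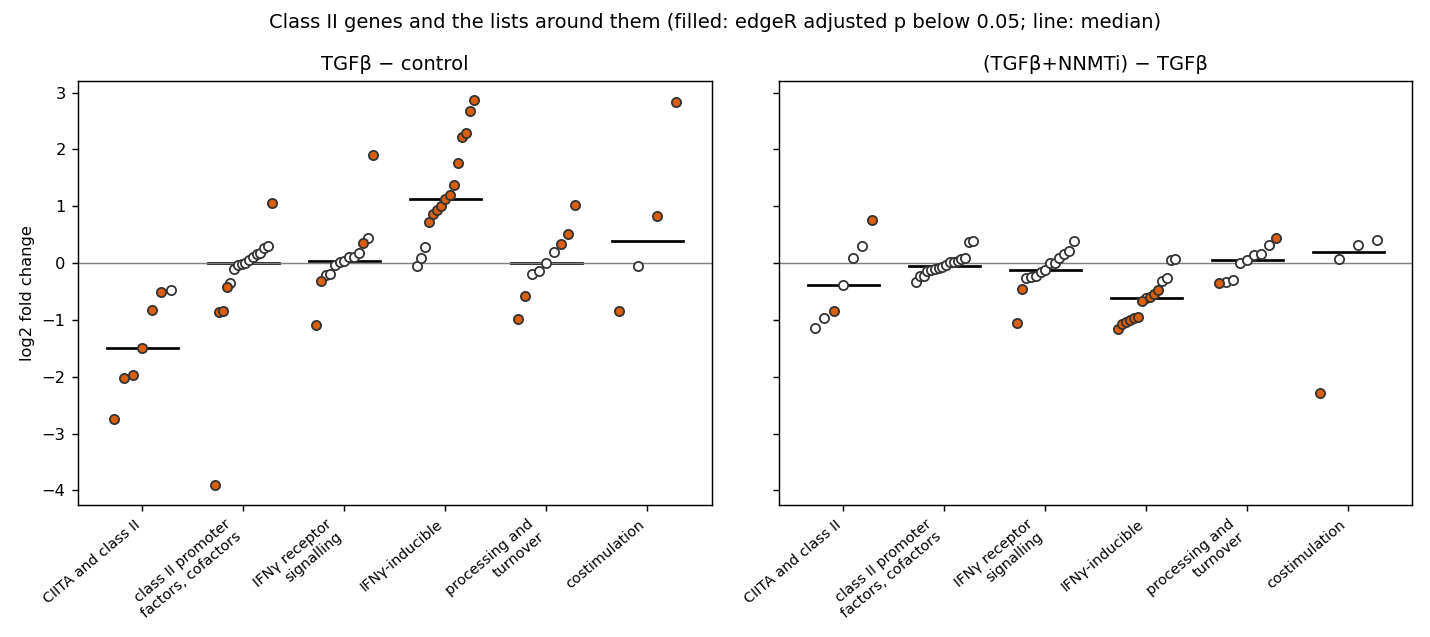
Log2 fold change of each tested gene of the class II set and of 5 lists around it, for TGFβ against control (left) and the combined group against TGFβ (right), with filled points called by edgeR and a line at each median. With TGFβ the IFNγ-inducible genes sit at a median of 1.12 and the class II set at -1.50, and the inhibitor in TGFβ-treated cells puts both medians below 0 (-0.62 and -0.38).

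Of 12 genes that cut, load and turn over class II cargo, 9 were tested, and TGFβ raised 3 and lowered 2, against 19.4% called higher and 17.1% lower over all genes. *Ctsl*, the cathepsin that trims the invariant chain in thymic epithelium, rose from 240 ± 18.2 to 486 ± 37 CPM (1.02 ± 0.10, edgeR adjusted p = 1.5e-07). *Ctss*, which does this in other antigen-presenting cells, averaged at most 0.291 CPM and was not tested. *Cst3*, the secreted cathepsin inhibitor cystatin C, fell by 0.99 on the log2 scale (adjusted p = 2.8e-05), and the aspartic protease *Ctsd* by 0.58 (adjusted p = 6.8e-05). *Sppl2a*, which clears the last fragment of CD74 from the membrane, rose by 0.52 ± 0.13 (adjusted p = 0.0045), a call lost without TGFβ replicates 2 and 3 together (adjusted p = 0.0598). *Ifi30*, the thiol reductase GILT, was called higher with TGFβ (0.34 ± 0.11, adjusted p = 0.018) and higher again in the combined group than with TGFβ (0.44 ± 0.11, adjusted p = 0.011). The first of these calls was lost without control replicate 1 and under 3 other settings (adjusted p 0.0636 to 0.324), and the second with only these groups fitted (adjusted p = 0.0736). The asparaginyl endopeptidase *Lgmn* was not called (0.19 ± 0.23), but it was called higher without TGFβ replicate 2 (0.47, adjusted p = 0.0031). In the combined group *Ctsl* was lower than with TGFβ (-0.35 ± 0.10, adjusted p = 0.023), a call lost without combined replicate 1, 2 or 3 and under 2 other settings (adjusted p 0.0591 to 0.188).

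Costimulatory genes, which T cells read beside class II, were sparse. Of 8 listed, 4 were tested, and TGFβ raised 2 and lowered 1, too few to set against the 19.4% called higher and 17.1% lower over all genes. *Cd40* rose from 1.93 ± 0.416 to 14.2 ± 3.43 CPM (2.83 ± 0.34, edgeR adjusted p = 2.4e-06). *Cd80* rose with TGFβ (0.83 ± 0.20, adjusted p = 0.0026) and fell with the inhibitor, by 1.84 on the log2 scale alone (adjusted p = 3.1e-05) and by 2.29 in TGFβ-treated cells (adjusted p = 2.2e-06). Its level in the combined group was 3.67 ± 0.801 CPM. *Icosl* was called lower with TGFβ (-0.85 ± 0.31, adjusted p = 0.037), a call lost without control replicate 1, 2 or 3, without TGFβ replicate 1 or 3 and with only these groups fitted (adjusted p 0.0557 to 0.141). *Cd86* had 0 counts in every library.

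Markers of professional antigen-presenting cells and other leukocytes were looked at beside these values. Of 18 such markers 7 had no count in any library and 13 averaged under 1 CPM. Of the defining markers, *Cd79a*, *Flt3* and *Tyrobp* were at 0 and *Ptprc* averaged at most 0.377 CPM, but *Csf1r* averaged 68.6 CPM in the controls. All 5 endothelial markers averaged under 1 CPM. The summed level of the leukocyte list was 106 to 111.4 CPM in the controls, 84.1 to 95.4 with the inhibitor, 67.5 to 86.9 with TGFβ and 48.3 to 52.3 in the combined group. Most of it was *Csf1r*, the receptor for colony-stimulating factor 1, which went from 68.6 ± 2.63 to 44.3 ± 6.11 CPM with TGFβ (-0.64 ± 0.13, edgeR adjusted p = 0.0011), and the lipopolysaccharide co-receptor *Cd14*, which went from 24 ± 1.56 to 11.9 ± 4.37 CPM (-0.98 ± 0.20, adjusted p = 9.7e-04). *Fcer1g*, the common γ chain of Fc receptors, went the other way, from 1.19 ± 0.165 to 4.38 ± 1.06 CPM (1.87 ± 0.42, adjusted p = 0.0019), and *Cd68* (-0.17 ± 0.27) and *Zbtb46* (0.16 ± 0.24) were not called. Their part in the class II values was not tested.

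The strand setting of the counting is not given in the sources used here, so genes that overlap cannot be told apart by their reads. *Dexi* lies opposite *Ciita*, and it was at 58.7 ± 5.47 CPM in the controls and 43.4 ± 5.79 CPM with TGFβ (-0.42 ± 0.13, edgeR adjusted p = 0.014), above *Ciita* in every group. *Brd2*, opposite *H2-DMa*, was at 540 ± 18.8 and 551 ± 293 CPM and was not called (0.02 ± 0.33). *Gm20493*, *CR974462.4* and, on the same strand, *CR974462.3* also overlap *H2-DMa*, *Gm20513* overlaps *H2-Eb1* and *Mir5107* lies in *Cd74*. *H2-DMb1* and *H2-DMb2* are near-identical copies, so reads may be split between them, and *H2-DMb2* averaged at most 0.739 CPM.

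The pattern over the 4 groups was compared with that of 13036 genes averaging at least 1 CPM, by the root mean square difference of the centred log2 group means. Nearest to *Ciita* were *Bdh2* (0.0377), *Ank3* (0.0392), *Tert* (0.0608), *Pcolce* (0.0636) and *Mme* (0.0642). Of the class II genes, *H2-Eb1* came nearest to it, at rank 122 (0.213). *Cd74* ranked 748, *H2-Ab1* 800, *H2-DMa* 2075, *H2-DMb1* 5125 and *H2-Aa* 6240. Nearest to *H2-Eb1* were *Cox7a1* (0.0632), *Bcam* (0.0641), *Gsta4* (0.0674), *Tcf24* (0.0876) and *Fcor* (0.0918), and *Ciita* was at rank 51. The measure rests on 4 means and, for *Ciita*, on as few as 22 counts in a group. Its log2 values were taken with a prior count of 3, which narrows differences at low counts. The effect of this prior on the ranks was not tested. *H2-Aa* stood furthest from *Ciita* of the 6 class II genes. Its inhibitor group lay above the controls, unlike that of *Ciita*, but this was also so for *H2-Ab1*, *H2-DMa* and *H2-DMb1*, which ranked nearer. Its difference with TGFβ was larger than that of *Ciita* (-2.74 against -1.96).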

How the data were processed

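Messenger RNA of 12 im-TEC libraries, 4 groups of 3, was prepared from 100 ng of total RNA with QuantSeq 3′ FWD. Per the submitters' processing notes the reads were aligned with STAR and counted with HTSeq, whose versions and strand setting are not given in the sources used here, and the deposited values are raw counts per gene. The build named in those notes is GRCh38, a human build, although the identifiers are those of mouse genes, so the build used for counting is not known. The promoter coordinates printed and the gene overlaps come from the mouse build GRCm38 and not from the counting. Reads outside genes (21.1 to 26.8% of counts) were left out. Of 55487 genes 23630 had a count, and 55141 identifiers matched a symbol.

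Counts were filtered with filterByExpr (13581 genes kept), scaled by TMM and fitted in edgeR 4.0.16 (R 4.3.3, limma 3.58.1) with robust quasi-likelihood F-tests in 1 model of 4 group means, after the procedure was tested on simulated data. Adjusted p-values are Benjamini-Hochberg over all genes tested. A library at 0 allows up to 3 counts, which covers counting error only. The members and lists were chosen with earlier results of these data known. Named were the 7 genes, a fixed panel, up to 4 called genes a list and comparison by smallest p, and the 5 genes nearest in pattern. Overlapping genes, markers and *Cd86*, *Ifng* and *H2-Ea* were named after their values were seen. Results of 1 listed gene are not reported here. No library duplicated another (chi-square per degree of freedom 3.226 to 40.85). Same-numbered libraries did not deviate together (correlation -0.0847 to 0.202), so numbers were not taken as pairs. Alternatives were DESeq2 1.42.0, other scalings, no filter, a replicate block, fitting only the groups compared, leaving out libraries, and thinning. TGFβ, inhibitor and combined comparisons share groups and so are not independent of each other.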

Additional observations from a re-analysis of the deposited data

Results flagged for a closer look

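For 4 genes of the pathway lists around class II, the inhibitor's effect differed with TGFβ by the edgeR interaction term, adjusted over all genes tested. *Iigp1*, an IFNγ-inducible GTPase, had an interaction of -1.08 (log2, adjusted p = 0.0011), and its level was 103 ± 7.56 CPM in the controls, 106 ± 12.5 with the inhibitor, 110 ± 8.67 with TGFβ and 53.6 ± 0.959 in the combined group. *Gbp3* had -0.957 (adjusted p = 0.0050), a call lost after thinning (adjusted p = 0.0548). *Psmb8* had -0.728 (adjusted p = 0.037), a call lost in 11 alternatives (adjusted p 0.0546 to 0.125). *Ctsl* had -0.619 (adjusted p = 0.030), a call lost in 9 (adjusted p 0.0546 to 0.131). None of the 7 class II genes was among them. On the list of tubule markers *Lrp2*, the endocytic receptor megalin, had an interaction in the opposite direction (0.85 ± 0.13, adjusted p = 0.0015). Groups of 3 are too small for the test of single outlying libraries.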

How the results depend on the processing

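Calls of the 7 genes were the same in 486 of 510 gene and alternative pairs, a description only, since these runs reuse the libraries in view when the genes were chosen. A call was lost in 14 and gained in 10, and no called value changed sign, although some uncalled values near 0 did, *Ciita* in the interaction among them. Fitting only the groups compared gave 2931 genes with the inhibitor, against 1123 (4 of the 7 class II genes, against 1) and 408, against 1416, for the combined group compared with TGFβ (1 of the 7, against 2). Leaving out libraries one at a time gave 591 to 684 genes with the inhibitor, 762 to 1938 genes for the combined group against TGFβ (of the 7 genes, 1 to 3), and 65 to 399 for the interaction (of the 7, 0 to 1). For the interaction, against 151 genes, DESeq2 gave 266 and no filter gave 306. Library size alone moved the split with TGFβ from 2636 higher and 2325 lower to 2144 and 2811, and no scaling moved the median of all genes by over 0.1. Replicate numbers do not pair the libraries. With a replicate block the counts were 4875 genes for TGFβ, 1033 for the inhibitor, 1306 for the combined group against TGFβ, 4887 for it against the inhibitor and 119 for the interaction, and in that order 6, 1, 2, 6 and 0 of the 7, as without it. Chosen after seeing the data, thinning to the shallowest library gave 667, 782 (1 of the 7) and 91 genes for the inhibitor, the combined group against TGFβ and the interaction, and leaving out TGFβ replicates 2 and 3 together, where the lone library is assumed to vary like the others, gave 350 genes (1 of the 7) for the interaction. Of 2256 values of 31 named genes of the surrounding lists 94 lost a call and 32 gained one. Depth limits *Ciita* most, with 22 to 121 counts a group. The cause of these shifts was not tested.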
